A study of Saccharomyces cerevisiae SK1 with 8 samples.

Results

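Cells that lacked the native PUS1 gene were compared with cells that kept it, while both expressed a truncated Pus1 isoform from an inducible construct. The comparison was defined by the labels alone and takes 4 of the 8 libraries of the series, 2 biological replicates in each group, and covers all 6663 genes listed in the count files, of which 5932 were tested. The first group, pus1del_aTC, is the strain in which KanMX replaces PUS1, treated with anhydrotetracycline (aTC), the inducer. The group it is set against, WT_aTC, is the strain with native PUS1, treated in the same way. The other 4 libraries, pus1del_DMSO and WT_DMSO, are the same strains given the solvent DMSO. They describe the same deletion without inducer and stand beside some genes below. All 8 libraries also enter the fit that gives the spread behind every p-value. Base composition is set against the mean of all 8. All strains are MATa/alpha diploids of the SK1 background. All carry altPus1, the truncated isoform, fused to the 3V5 tag under the promoter pTetO7.1 at his3, and the repressors TetR-Tup1 (from pRNR2) and TetR (from pTetO7.1) at ura3, so that neither group is free of the tetracycline system. Cells were taken 3 h after dilution into YEPD, a rich medium, at 30 °C. The design text places them in vegetative exponential growth. The labels do not say whether the deletion strain is 1 isolate or several. Diploidy was checked on pheromone genes that a/alpha cells keep off: MFA1, MFA2, MF(ALPHA)1 and STE3 were at 1.45 CPM (a gene's count relative to the scaled total of its library) or less in every library, while ACT1, the actin gene, was at 2690 to 3360 CPM.

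Pus1 is a pseudouridine synthase, an enzyme that turns uridine in an RNA chain into its isomer pseudouridine. In budding yeast it is known to modify several positions of many tRNAs, and also the U2 spliceosomal RNA and some mRNAs. A change in RNA modification is not itself visible in counts of mRNA, so the values below describe which transcripts were more or less abundant. Ribosome assembly genes, which are prominent among the genes that fell, act in the nucleolus, where ribosomal RNA is made, cut and folded onto ribosomal proteins. Their promoters are known for a short element called PAC, while promoters of general stress genes carry the stress element bound by Msn2 and Msn4.

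To show what these promoters look like, 5 windows are given for genes described below, each running 5′ to 3′ from 250 to 101 bases before the start codon. They come from the RefSeq assembly R64 of strain S288C, and the SK1 strains may differ from them. EBP2, LOC1 and RRP14 are 3 of the 12 genes that fell the furthest. Capitals mark the core of PAC, searched as GATGAG on both strands (its reverse complement is CTCATC). The EBP2 window is chrXI:125509-125658 on the plus strand, the LOC1 window is chrVI:148860-149009 on the plus strand, and the RRP14 window is chrXI:282430-282579 on the minus strand. HSP78 and SSA1 are chaperone genes that rose, from the list of Hsf1 chaperones and not from that of general stress genes. In their windows capitals mark only the stress element, searched as AGGGG on both strands (its reverse complement is CCCCT). The HSP78 window also holds the core of PAC, as CTCATC, which is left in lower case. The HSP78 window is chrIV:974344-974493 and the SSA1 window chrI:141532-141681, both on the minus strand.
EBP2: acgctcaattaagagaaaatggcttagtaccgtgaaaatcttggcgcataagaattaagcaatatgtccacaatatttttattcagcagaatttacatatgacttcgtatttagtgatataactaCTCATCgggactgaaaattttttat
LOC1: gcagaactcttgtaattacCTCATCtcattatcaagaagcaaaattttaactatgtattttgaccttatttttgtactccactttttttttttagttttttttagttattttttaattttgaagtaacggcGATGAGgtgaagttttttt
RRP14: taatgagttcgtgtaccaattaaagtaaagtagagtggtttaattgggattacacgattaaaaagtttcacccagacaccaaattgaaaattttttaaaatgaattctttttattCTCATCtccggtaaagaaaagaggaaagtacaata
HSP78: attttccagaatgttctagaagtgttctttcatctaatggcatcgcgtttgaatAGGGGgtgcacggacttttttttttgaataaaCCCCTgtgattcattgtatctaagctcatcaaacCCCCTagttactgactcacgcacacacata
SSA1: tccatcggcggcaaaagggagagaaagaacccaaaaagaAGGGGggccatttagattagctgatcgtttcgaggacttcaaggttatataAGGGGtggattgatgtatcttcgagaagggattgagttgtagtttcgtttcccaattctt

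The PAC core lay 125 to 120 bases before the start codon in EBP2 and 135 to 130 bases before it in RRP14. LOC1 held it on each strand, from 231 and from 119 bases before the start. HSP78 held 3 stress elements and SSA1 held 2.

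Total counts were 54962651 and 54658278 in pus1del_aTC and 61960514 and 52994181 in WT_aTC. Before any gene is read, replicate 1 of each group stood apart in its base composition. In pus1del_aTC replicate 1, genes whose coding strand is rich in purines (A and G) were low, with a Spearman correlation of -0.557 between a gene's deviation from the mean of the 8 libraries and the purine share of its coding sequence, across 5591 genes. In WT_aTC replicate 1 the same genes were high, at a correlation of 0.521. The correlation was -0.189 in pus1del_aTC replicate 2, -0.0647 in WT_aTC replicate 2, and 0.0396 to 0.304 in the 4 DMSO libraries. The log2 fold changes of pus1del_aTC over WT_aTC followed purine share at -0.471, against -0.0721 for pus1del_DMSO over WT_DMSO. Without pus1del_aTC replicate 1 the correlation was -0.318, and without WT_aTC replicate 1 it was -0.348. Genes are not independent replicates, so these correlations are descriptions. Of 10 equal bins of genes ordered by purine share, in the richest (median 60.2%), 42% were called lower in pus1del_aTC and 0.179% higher. In the poorest (46.5%), 1.96% were called lower and 5.36% higher. Most gene groups, and single genes where it is stated, are therefore also given after a correction (chosen after seeing the data). It takes the smooth trend on purine share out of every library. What makes the libraries differ in this way was not tested.

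**Figure D1:**
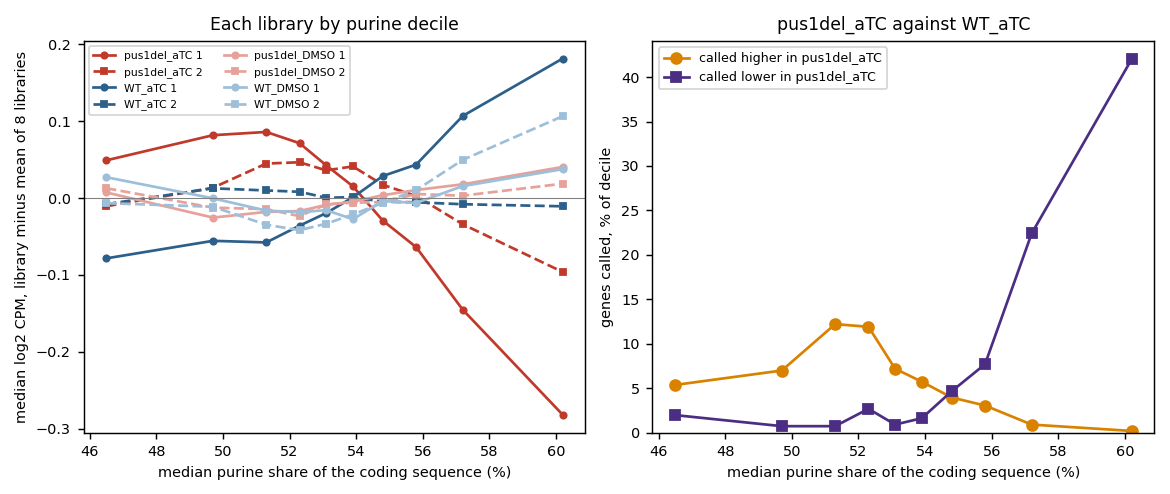
Left, the median log2 CPM deviation of each library from the mean of the 8 libraries, for 10 equal bins of genes ordered by the purine share of their coding sequence. Right, the percentage of each bin called higher or lower in pus1del_aTC than in WT_aTC. In the richest bin the deviation was -0.28 and -0.10 in pus1del_aTC replicates 1 and 2 and 0.18 and -0.01 in WT_aTC replicates 1 and 2, and 42% of its genes were called lower.

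PUS1 itself (YPL212C, chromosome 16, 149155 to 150789, minus strand, in the coordinates of the files, whose headers name no build) checks the labels only in part, since reads of the native transcript and of the construct are counted together. It had 771 and 905 CPM in pus1del_aTC and 1124 and 1078 CPM in WT_aTC, so the groups did not overlap. The log2 fold change was -0.39 (SE 0.0719, edgeR quasi-likelihood adjusted p = 0.0152), and -0.25 after the purine correction (edgeR adjusted p = 0.0185). Without inducer the strain labelled as the deletion had 2 and 4 reads, against 11004 and 12139 in WT_DMSO. With inducer the deletion held 16000 times more PUS1 reads than without it (95% counting interval 7360 to 43600). The neighbours on either side of PUS1 differed in what they showed. NIP7, a 60S assembly gene, had 127 and 112 CPM in pus1del_aTC and 104 and 99.1 CPM in WT_aTC and rose (log2 0.23, SE 0.0649, edgeR adjusted p = 0.0388, corrected 0.22). The call of NIP7 was kept in 1 of the 8 fits that each left out a library. LEA1, a splicing gene, was not called (log2 -0.13, edgeR adjusted p = 0.303). TUP1, URA3 and RNR2 are named in the description of the constructs, RNR2 only for its promoter. TUP1 (-0.08), URA3 (-0.19) and RNR2 (-0.08) also did not pass, at edgeR adjusted p = 0.405, 0.222 and 0.268. After the purine correction RNR2 was called lower (-0.17, edgeR adjusted p = 0.041), while TUP1 (-0.16, adjusted p = 0.059) and URA3 (-0.05, adjusted p = 0.718) were not called. HIS3 had 0 or 1 read in every library.

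Of 5932 genes, 808 (13.6%) were called at an adjusted p under 0.05, 326 higher in pus1del_aTC (5.5%) and 482 lower (8.13%). At an unadjusted p under 0.05 there were 1926 (32.5%), 903 higher and 1023 lower. The changes were small: 3 genes exceeded 2-fold, all of them higher, and 60 exceeded 1.5-fold, 14 higher and 46 lower. The median log2 fold change was 0.31 over the genes called higher and -0.36 over those called lower, against 0.005 over all genes tested. Every called gene kept its sign with each of the 8 libraries left out, as did 4152 of all 5932 genes. The 2 groups did not overlap for any called gene, so leaving out a library could hardly turn its sign. The calls themselves rested on replicate 1 of each group. Without pus1del_aTC replicate 1, 3 genes were called (0.0503%), and without WT_aTC replicate 1, 63 (1.06%), of which 11 were higher (0.184%) and 52 lower (0.872%). The count was 220 without pus1del_DMSO replicate 2, 332 without pus1del_DMSO replicate 1 and 1408 without WT_aTC replicate 2. At an unadjusted p under 0.05, 294 of the 326 and 425 of the 482 passed in all 8 of those fits. After the purine correction 691 of 5591 genes were called (12.4%, with 5.29% higher and 7.06% lower), and 212 of the 326 and 206 of the 482 were called in the same direction as before. DESeq2 called 973 genes (17.6%), 317 higher (5.75%) and 656 lower (11.9%).

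**Figure D2:**
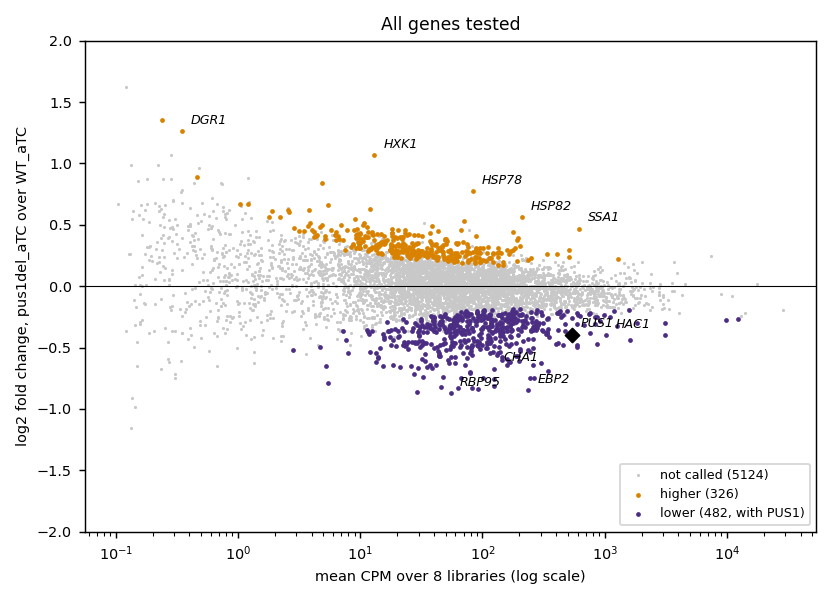
Log2 fold change of pus1del_aTC over WT_aTC against mean CPM over the 8 libraries (log scale) for the 5932 genes tested. Orange points are the 326 genes called higher, purple points the 482 called lower and the black diamond is PUS1. Most called genes lie within a factor of 1.5 of no change, and 60 lie beyond it.

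Only HSP78, CHA1 and HAC1 were called with each of the 8 libraries left out. HSP78, which encodes a mitochondrial disaggregase that resolubilises damaged proteins, had 98.2 and 118 CPM in pus1del_aTC and 63.0 and 63.4 CPM in WT_aTC. Both deletion libraries lay well above both wild-type libraries, a rise of 1.71-fold (log2 0.77, SE 0.0912, edgeR adjusted p = 0.00662). The log2 fold change of HSP78 was 0.90 without pus1del_aTC replicate 1, 0.77 without WT_aTC replicate 1 and 0.84 after the purine correction. CHA1, the serine and threonine deaminase gene, had 85.8 and 103 CPM in pus1del_aTC and 146 and 155 CPM in WT_aTC, a fall (log2 -0.67, SE 0.0776, edgeR adjusted p = 0.00662, corrected -0.70). HAC1, the gene of the transcription factor of the unfolded protein response, had 914 and 833 CPM in pus1del_aTC and 1147 and 1153 CPM in WT_aTC. Its log2 fold change was -0.40 (SE 0.0571, edgeR adjusted p = 0.0134, corrected -0.45). HAC1 overlaps another listed gene, so reads in the overlap were not counted. Of the 20 unfolded protein response genes tested, HAC1 fell and 2 rose, KAR2, the Hsp70 gene of the endoplasmic reticulum (log2 0.22), and MPD1, a protein disulfide isomerase gene (0.32). These are 15% of the list, close to the 13.6% of all genes. KAR2 was not called after the correction (log2 0.17, edgeR adjusted p = 0.0721). The libraries of the 2 groups did not overlap for any of these 3 genes, which was also true of 58.9% of all genes tested.

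Among named genes with a standard symbol, the 12 that rose the furthest came from several functions. DGR1 had the highest fold change (log2 1.26, SE 0.34, edgeR adjusted p = 0.0343), but on 21 and 32 reads in pus1del_aTC and 11 and 11 reads in WT_aTC. HXK1, a hexokinase gene that is usually high when glucose is scarce, had 18.8 and 21.1 CPM in pus1del_aTC and 8.51 and 10.6 CPM in WT_aTC (log2 1.07, SE 0.168, edgeR adjusted p = 0.015). HXK1 also overlaps another listed gene. HSP82, one of the 2 cytosolic Hsp90 genes, had 235 and 284 CPM in pus1del_aTC and 173 and 179 CPM in WT_aTC (log2 0.56, SE 0.126, edgeR adjusted p = 0.021). YPS6, a yapsin protease gene, rose by a log2 of 0.63 and KNH1, a gene of cell wall glucan synthesis, by 0.62. SMA2, needed for the spore membrane, rose by 0.66 and HES1, of the oxysterol-binding family, by 0.62. The rest of the 12 were DPA10 (0.89), RRT6 (0.84), HSP78, DPC7 (0.67) and RTC3 (0.61). DPA10 also rested on few reads, 36 and 36 in pus1del_aTC and 21 and 18 in WT_aTC. It was not called after the correction (edgeR adjusted p = 0.0512). DPC7 had 67 and 79 reads in pus1del_aTC and 49 and 43 in WT_aTC. All 12 stayed above 0.45 without either replicate 1, and after the correction they ran from 0.56 to 1.20. Without pus1del_aTC replicate 1, HSP78 alone of the 12 was called, and the edgeR adjusted p of the others was at most 0.172. The 3 genes over 2-fold were HXK1, DGR1 and YIR021W-A (log2 1.35), a gene with no standard symbol that was named after its value was seen.

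Of the 12 genes that fell the furthest, 4 (EBP2, LOC1, NOP15 and PXR1) belong to the 60S assembly list, and RRP14, RRP15, CGR1, NOP53, KRI1 and RBP95 are also known for ribosome assembly. EBP2, required for an early step of large subunit assembly, had 148 and 163 CPM in pus1del_aTC and 345 and 213 CPM in WT_aTC. The deletion libraries agreed closely, while the wild-type libraries lay far apart, with replicate 1 the highest of all 8 libraries and replicate 2 below the 4 DMSO libraries, which had 231 to 289 CPM. The log2 fold change of EBP2 was -0.85 (SE 0.162, edgeR adjusted p = 0.0161), -0.46 without WT_aTC replicate 1 and -0.28 after the purine correction. LOC1, which acts in 60S assembly and mRNA localisation, had 52.4 and 57.5 CPM in pus1del_aTC and 118 and 77.6 CPM in WT_aTC (log2 -0.83, SE 0.144, edgeR adjusted p = 0.015). RRP14 had 38 and 44.8 CPM in pus1del_aTC and 87.8 and 59.5 CPM in WT_aTC (log2 -0.83). Both genes show the same picture as EBP2, with the deletion libraries lowest and WT_aTC replicate 1 highest. The others were RBP95 (-0.87), CGR1 (-0.86), PXR1 (-0.84), RRP15 (-0.82), NOP15 (-0.82), MPP6 (-0.79), which encodes a cofactor of the nuclear exosome, NOP53 (-0.75), RRT14 (-0.75) and KRI1 (-0.75). All 12 have purine-rich coding sequences, from 62.2% to 73.5%, where the median gene has 53.5%. After the correction 7 of the 12 were still called lower, with RBP95 the furthest at -0.45 (edgeR adjusted p = 0.00646), and CGR1, the richest in purine, was at 0.03 (adjusted p = 0.808). Without pus1del_aTC replicate 1 the 12 ran from -0.78 to -0.65, and without WT_aTC replicate 1 they ran from -0.63 to -0.40.

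**Figure D3:**
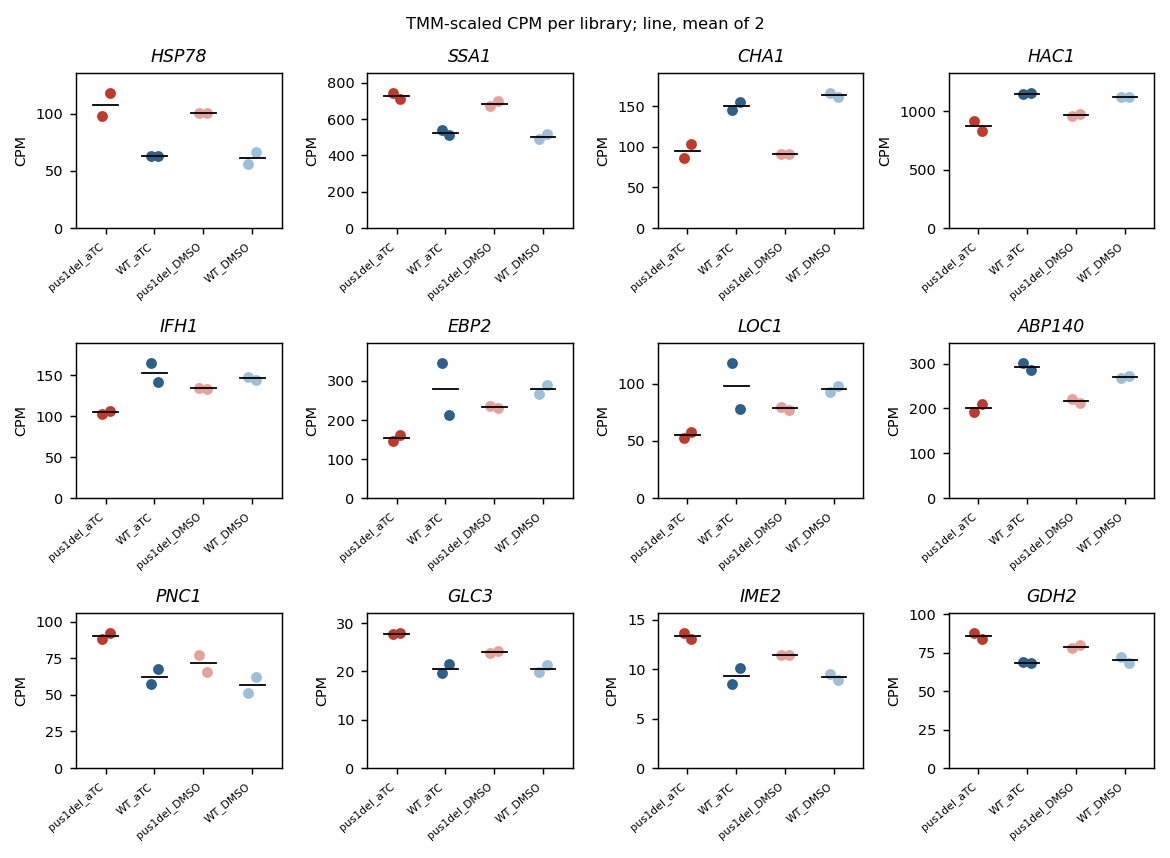
CPM in each of the 8 libraries for 12 named genes, with pus1del_aTC left of WT_aTC and the same order in DMSO. Points are libraries, lines are means of 2, and every axis starts at 0. Each of the 12 genes separates the strains with both treatments. With aTC that holds for every called gene, from which these were picked, and for 58.9% of all genes tested. The share of all genes with DMSO was not computed. EBP2 and LOC1 are lowest in pus1del_aTC and differ widely between the WT_aTC replicates.

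Taken by group, 60S assembly genes fell most often. Of 53 tested, 33 were called lower and 1, NIP7, higher, where 8.13% and 5.5% of all genes were, and 52 had a log2 fold change under 0. Their median was -0.36, and -0.31 and -0.21 without replicate 1 of pus1del_aTC and of WT_aTC. The summed level was 11122 and 11144 CPM in pus1del_aTC and 15032 and 12538 CPM in WT_aTC, with 12584 to 14610 CPM in the DMSO libraries. Among these genes the fold change followed purine share closely, at a Spearman correlation of -0.89 over the 53. After the correction the correlation was -0.083, 20 genes were called lower against 7.06% of all genes, and the median was -0.20. Genes that kept a call include BUD20, a nuclear export factor of pre-60S particles (log2 -0.51, corrected -0.34), the helicase gene DRS1 (-0.64, corrected -0.40), DBP10 (-0.52, corrected -0.36), ERB1 (-0.39, corrected -0.36) and NOC3 (-0.34, corrected -0.30). MAK16 (-0.57, corrected -0.09), SPB1 (-0.43, corrected -0.12) and RLP24 (-0.45, corrected -0.07) were called lower before the correction and not after it.

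The processome and snoRNP genes, which cut and modify ribosomal RNA on the way to the small subunit, also held many genes that fell. Of 41 tested, 18 were called lower and 0 higher by edgeR, where 8.13% and 5.5% of all genes were. The median was -0.22. At an unadjusted p under 0.05 there were 25 lower and again 0 higher, where 1023 and 903 of all 5932 genes were. ROK1, a helicase gene, had 101 and 101 CPM in pus1del_aTC and 167 and 132 CPM in WT_aTC (log2 -0.56, SE 0.0898, edgeR adjusted p = 0.015). NHP2, a protein of the H/ACA particles that guide pseudouridylation of ribosomal RNA, fell by a log2 of 0.53, NOP14 by 0.62 and ECM16 by 0.49. After the correction 11 of the 41 were called lower, these 4 included, against 7.06% of all genes, and the median was -0.16. The fold change followed purine share here too, at a Spearman correlation of -0.875 over the 41 genes, and of -0.271 after the correction. RNA polymerase I, which transcribes ribosomal RNA, had 5 of 16 genes called lower and 0 higher, RPA43 (-0.41) and RPA34 (-0.45) among them, and after the correction 4 lower and 1 higher. RNA polymerase III, which makes tRNAs, had 5 of 18 lower and 0 higher, RPC31 (-0.44) and RPC53 (-0.45) among them, but after the correction 1, RPC31.

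The ribosomal protein genes had a median closer to 0 than the processome and snoRNP genes (-0.22). It was not closer to 0 than that of RNA polymerase III (-0.09). For RNA polymerase I the median was -0.13. After the correction the medians of RNA polymerase I and III were -0.12 and -0.06. Of 136 cytosolic ribosomal protein genes, 15 were called lower and 3 higher (13.2% in all, close to the 13.6% of all genes), although 123 lay below 0 and the median was -0.12. After the correction 23 were lower and 4 higher (19.9%, against 12.4% of all genes), at a median of -0.14. DESeq2 called 30 lower and 3 higher (24.3%, against 17.6% of all genes). RPL24B had 655 and 749 CPM in pus1del_aTC and 1028 and 920 CPM in WT_aTC (log2 -0.47), while RPL22B (0.32) and RPL28 (0.27) rose. Most ribosomal proteins have a near-identical paralogue, and how unique alignment divides such pairs is uncertain. IFH1, a coactivator of ribosomal protein genes that overlaps another listed gene, had 103 and 107 CPM in pus1del_aTC and 165 and 141 CPM in WT_aTC, with no overlap between groups (log2 -0.54, SE 0.0689, edgeR adjusted p = 0.00895, corrected -0.26). Translation factors had 9 of 35 genes lower and 0 higher (median -0.11, and 10 lower after the correction), led by GCD2, a subunit of eIF2B (-0.43), and TIF4632, an eIF4G gene (-0.38).

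The other enzymes that modify RNA also leaned lower. Beside PUS1, CBF5, the H/ACA synthase, had 758 and 794 CPM in pus1del_aTC and 945 and 899 CPM in WT_aTC (log2 -0.25, SE 0.0589, edgeR adjusted p = 0.0239). PUS4, which modifies the T loop of tRNAs, fell by a log2 of 0.24 (edgeR adjusted p = 0.0417). Neither was called after the correction (-0.09 and -0.04). The other 7 synthase genes were not called, from -0.22 for PUS7 to 0.10 for PUS5, and PUS2, the paralogue of PUS1, was at -0.09 (edgeR adjusted p = 0.5). Among 47 other tRNA modification genes, 10 were lower and 0 higher by edgeR (21.3% in all, against 13.6% of all genes). At an unadjusted p under 0.05, 17 were lower and 1 higher, where 1023 and 903 of all 5932 genes were. After the correction 10 were lower and 0 higher (21.3%, against 12.4% of all genes), 6 of which were also called before it. ABP140, whose product includes a tRNA methyltransferase, had 193 and 210 CPM in pus1del_aTC and 301 and 285 CPM in WT_aTC (log2 -0.54, SE 0.0589, edgeR adjusted p = 0.00662, corrected -0.30). TAN1, for tRNA acetylation, fell by 0.57, TRM1, for guanosine dimethylation, by 0.36, and TRM10 by 0.47, and TRM10 was not called after the correction (-0.14).

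Stress and chaperone genes moved the other way. Of 42 general stress genes, 16 were called higher and 0 lower by edgeR, where 5.5% and 8.13% of all genes were. At an unadjusted p under 0.05, 24 were higher and 0 lower, where 903 and 1023 of all 5932 genes were. In 39 the log2 fold change lay above 0, against 3023 of all 5932 genes, and the list median was 0.24. After the correction 13 were higher, against 5.29% of all genes, at a median of 0.18. Within this list the fold change did not follow purine share (Spearman correlation 0.069). PNC1, a nicotinamidase gene, had 88.1 and 92.0 CPM in pus1del_aTC and 57.2 and 67.5 CPM in WT_aTC (log2 0.53, SE 0.106, edgeR adjusted p = 0.0166, corrected 0.47). GLC3, the glycogen branching enzyme gene of this list, had 27.7 and 27.9 CPM in pus1del_aTC and 19.6 and 21.6 CPM in WT_aTC (log2 0.43), GSY2, a glycogen synthase, rose by 0.33, and the trehalose genes TSL1, TPS1 and TPS2 by 0.33, 0.31 and 0.28. The classical markers HSP12 (0.88, edgeR adjusted p = 0.133), CTT1 (0.15) and HSP26 (0.25) did not pass.

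Of 25 Hsf1 chaperone genes, 5 rose and 2 fell (28% in all, against 13.6% of all genes), with a median of 0.14. After the correction 12 rose and 0 fell (48%, against 12.4% of all genes), with a median of 0.17. DESeq2 called 8 higher and 2 lower (40%, against 17.6% of all genes). Beside HSP78 and HSP82, SSA1, a cytosolic Hsp70 gene, had 742 and 710 CPM in pus1del_aTC and 539 and 511 CPM in WT_aTC (log2 0.47, SE 0.0563, edgeR adjusted p = 0.00662). HSP104, the cytosolic disaggregase gene, had 197 and 226 CPM in pus1del_aTC and 164 and 147 CPM in WT_aTC (log2 0.44), and AHA1, an activator of Hsp90, rose by 0.26. The cochaperone genes SBA1 (-0.24) and CNS1 (-0.49) fell before the correction and were not called after it. The near-identical partners SSA2 (0.11) and HSC82 (0.03) were not called, and reads shared within these pairs are lost under unique alignment. SSA1 also overlaps another listed gene.

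Several genes for growth without glucose or on poor nitrogen were also called higher. Of 22 genes of gluconeogenesis, the glyoxylate cycle and acetate use, 8 were higher and 0 lower by edgeR. That is 36.4%, against 13.6% of all genes, with a list median of 0.24. After the correction 6 were higher (27.3%, against 12.4% of all genes), at a median of 0.18. The summed level of the list was not higher, at 2769 and 2827 CPM in pus1del_aTC and 2915 and 2824 CPM in WT_aTC. ALD4, the mitochondrial acetaldehyde dehydrogenase gene, had 91.8 and 84.4 CPM in pus1del_aTC and 63.6 and 64.8 CPM in WT_aTC (log2 0.46, SE 0.0646, edgeR adjusted p = 0.0134). ADR1, an activator of glucose-repressed genes, rose by 0.42, ALD3 by 0.44 and CAT2, a carnitine acetyltransferase gene, by 0.40. Of 25 genes under nitrogen catabolite repression, 10 were higher and 0 lower (40%), and 7 higher and 1 lower after the correction (32%). GDH2, which releases ammonium from glutamate, had 87.4 and 83.6 CPM in pus1del_aTC and 68.5 and 68.4 CPM in WT_aTC (log2 0.32), and UGA1, DAL7 and DUR12 rose by 0.36, 0.38 and 0.35. Fatty acid oxidation genes had 5 of 17 higher and 0 lower before the correction (29.4%) and 1 higher after it (5.88%, under the share of all genes). Meiosis and sporulation genes had 6 of 38 higher and 1 lower (18.4%), and 8 higher and 1 lower after the correction (23.7%). IME2, a kinase gene of meiotic entry, had 13.6 and 13.0 CPM in pus1del_aTC and 8.49 and 10.2 CPM in WT_aTC (log2 0.52, SE 0.0977, edgeR adjusted p = 0.0157).

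DESeq2 also called 0 genes higher among the processome, polymerase I, polymerase III, translation and tRNA modification lists, and 0 lower among general stress, gluconeogenesis and fatty acid oxidation genes, but 1 lower among genes under nitrogen catabolite repression. At an unadjusted p under 0.05 edgeR had 0 genes in those directions in each list, except 1 tRNA modification gene higher and 1 gene under nitrogen catabolite repression lower.

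**Figure D4:**
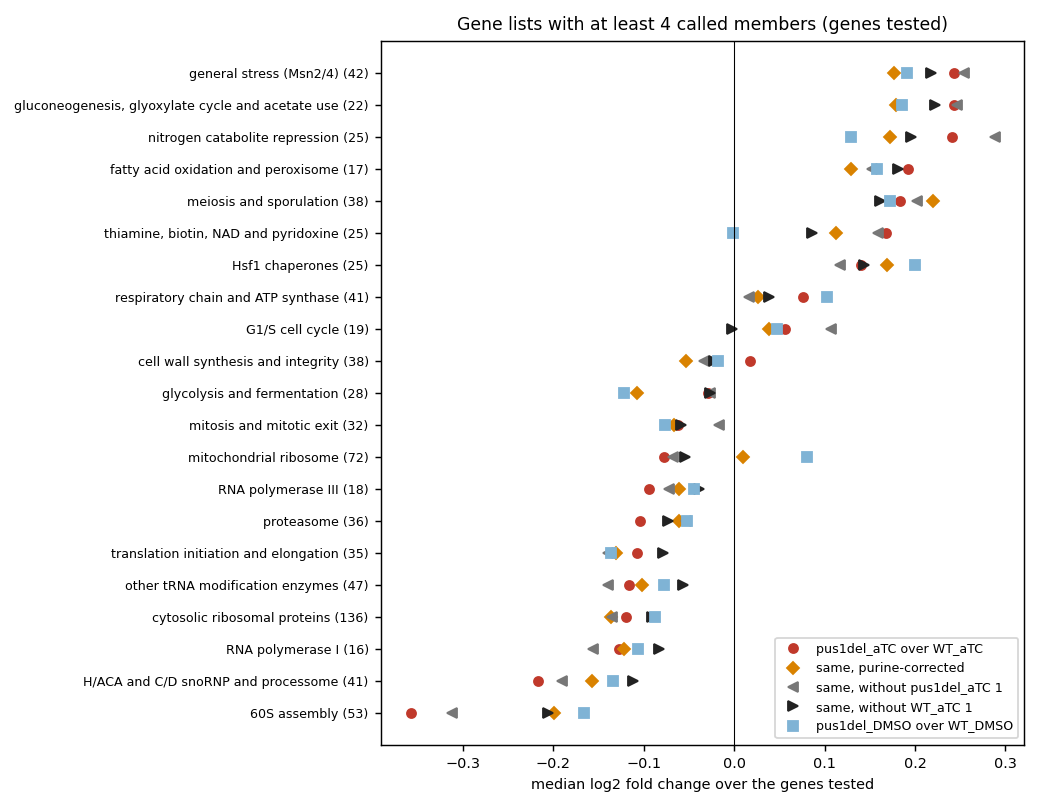
Median log2 fold change over the tested genes of each list that had at least 4 called members, for pus1del_aTC over WT_aTC (circles), after the purine correction (diamonds), without replicate 1 of either group (triangles) and for pus1del_DMSO over WT_DMSO (squares). General stress genes had medians of 0.18 to 0.25 over these 5 values and 60S assembly genes -0.36 to -0.17, while the mitochondrial ribosome changed sign, from -0.08 to 0.08.

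The promoter windows given above can be set against all genes. Over 300-base windows (250 before to 50 after the start codon, R64), the PAC core stood in 92.5% of 60S assembly genes, 39.4% of genes called lower, 15% of those called higher and 19.7% of all 5591 genes with a window. Genes with the core in the window had a median log2 fold change of -0.05 and 17% were called lower, against 0.02 and 6.44% for genes without it. After the correction these medians were -0.03 and 0.01. The stress element stood in 73.8% of general stress genes, 29.6% of genes called higher, 17.8% of those called lower and 22% of all genes. The elements of Gcn4 (TGACTCA), Hap (CCAAT), the E box (CACGTG) and Rpn4 (GGTGGCA), on both strands, stood in 4.05%, 45.8%, 2.49% and 2.18% of genes called higher and in 1.05%, 42.8%, 3.35% and 4.61% of genes called lower. Over all genes these shares were 2.88%, 44.1%, 3% and 3.06%. The PAC core and the stress element shared bases in 8 windows (0.143%). These shares are descriptions of letters in a window.

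The same deletion without inducer, pus1del_DMSO against WT_DMSO, shares no library with the comparison above, but both use the spread estimated over all 8 libraries. There 13 genes were called (0.219%), 8 higher (0.135%) and 5 lower (0.0843%), with 980 at an unadjusted p under 0.05. All 13 were also called with inducer in the same direction, which is 1.61% of the 808. Beside PUS1, the genes that fell in both were CHA1 (log2 -0.67 with aTC and -0.84 with DMSO), GPX2, a glutathione peroxidase gene (-0.49 and -0.59), HPF1, a cell wall mannoprotein gene (-0.40 and -0.56), and ZRT1, for zinc uptake (-0.25 and -0.55). The genes that rose in both were HSP78 (0.77 and 0.71), SSA1 (0.47 and 0.45), HSP82 (0.56 and 0.77), ALD4 (0.46 and 0.40), MCR1, a mitochondrial reductase gene (0.39 and 0.39), TPO4, a polyamine exporter gene (0.37 and 0.44), YPS6 (0.63 and 0.68) and YOR338W (0.42 and 0.96). Across the 5931 genes other than PUS1 the fold changes of the 2 comparisons correlated at 0.442. Of the 807 genes called with aTC, 779 (96.5%) had the same sign with DMSO, against 71.5% of all genes, and 780 were closer to 0 with DMSO, where the median of their ratios was 0.432. Those genes were selected in the comparison with aTC, so the ratio is a description, and the difference itself is tested below.

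The counts of the DMSO comparison moved widely between fits (2 and 1 without replicates 1 and 2 of pus1del_DMSO, 4 without WT_DMSO replicate 1, 106 and 94 without replicates 1 and 2 of WT_aTC, 27 to 29 without each of the other 3 libraries, 85, or 1.52%, after the purine correction). DESeq2 called 115 genes with DMSO. Fitted to only its own 4 libraries, the DMSO comparison called 261 genes, and the aTC comparison, fitted in the same way, 369. The list medians were of the same sign as with aTC for 60S assembly (-0.17), processome and snoRNP (-0.13), ribosomal proteins (-0.09), general stress (0.19), Hsf1 chaperones (0.20) and gluconeogenesis (0.19). The mitochondrial ribosome went the other way, with a median of -0.08 with aTC and 0.08 with DMSO, and 0.01 with aTC after the correction. Of its 72 genes, 5 were called with aTC, all lower (6.94%, under the 13.6% of all genes). They include MRPS17 (-0.35), MRPL50 (-0.33) and MRP21 (-0.31). After the correction 1 gene of the list was called higher and 0 lower (1.39%, against 12.4% of all genes). The list's fold changes followed purine share at -0.625.

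**Figure D5:**
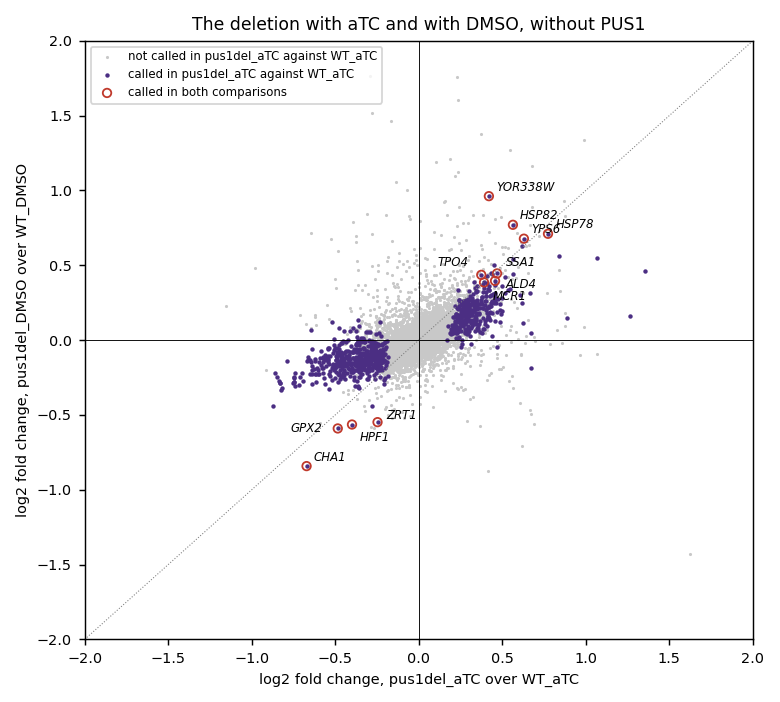
Log2 fold change of pus1del_DMSO over WT_DMSO against that of pus1del_aTC over WT_aTC for each gene except PUS1. Purple points were called with aTC, and red rings mark the 12 genes beside PUS1 that were called in both. Most ringed genes lie near the dotted line of equal change, while YOR338W (0.42 with aTC and 0.96 with DMSO) and ZRT1 (-0.25 and -0.55) lie farther from it, and 1 gene lies outside the axes.

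Whether the deletion had another effect with the isoform present than without it was tested as the difference of the 2 genotype effects. Only PUS1 was called (0.0169%), with a difference of 11.56 on the log2 scale (edgeR adjusted p = 3.19e-11), and its counts include the induced construct. At an unadjusted p under 0.05 there were 429 genes (7.23%), and 229 of 5591 after the purine correction. The differences followed purine share at a Spearman correlation of -0.556. DESeq2 and the fit with the correction each also called 1. Without WT_aTC replicate 2 the count was 175, 15 higher and 160 lower, and with every other library left out it was 1. None of the ribosome assembly genes above was called. The 12 largest falls had differences of -0.65 to -0.43 on the log2 scale, all at an edgeR adjusted p = 0.66. The smallest unadjusted p among genes whose effect was lower with inducer belonged to IFH1 (-0.54 with aTC and -0.12 with DMSO), LSM3, a gene of RNA decay and splicing (-0.45 and 0.06), SLU7, a splicing factor gene (-0.51 and 0.01), BUD20 (-0.51 and -0.07) and GFD2 (-0.23 and 0.12). Those higher with inducer were led by ZRT1 (-0.25 and -0.55), TPD3, a phosphatase scaffold gene (0.10 and -0.16), ATG29, of autophagy (0.31 and -0.17), and BNA4, of NAD synthesis (0.13 and -0.20). None of these passed (edgeR adjusted p = 0.66).

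No chromosome stood out. Median log2 fold changes ran from -0.02 to 0.03 over the 16 chromosomes, and the share of genes called from 10.5% to 17.1%.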

How the data were processed

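Polyadenylated RNA was sequenced from 2 biological replicates in each of 4 groups, with a directional kit, per the labels' protocols. The authors deposited raw counts per gene. Per the file headers they were made with featureCounts 2.0.1 over exons, from uniquely aligned reads. Neither strandedness nor assignment to several features was switched on, so that reads of either strand count and reads in an overlap of genes are dropped (1464 genes overlap another). STAR is named in the submitters' processing notes without a version. The SK1 coordinates are those of the files.

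Total counts ran from 51331492 to 61960514, so 3 reads, the limit a count of 0 allows, are 0.0491 to 0.0603 CPM. Intervals and floors cover counting error only. Counts were scaled by TMM, and the default expression filter kept 5932 genes. The edgeR 4.0.16 quasi-likelihood F test (R 4.3.3) was fitted to the 8 libraries together, each group having its own mean, without a block (4 residual degrees of freedom, biological coefficient of variation 5.44%). P-values were Benjamini-Hochberg adjusted over all genes tested, and a gene was called under 0.05. Values are log2 fold changes, with SE taken as the fold change over the square root of F, and CPM. The step was tested on simulated data. Symbols, coding sequences and promoter windows come from RefSeq R64, which matched 5931 of 6663 identifiers. R64 coordinates were kept apart from those of the files. The purine correction subtracts, per library, a lowess trend (span 0.3) of log2 CPM deviations on the purine share of 5591 coding sequences, as an offset, and its fit tests those genes.

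Named genes are the 12 furthest rises and 12 furthest falls of called genes that have a standard symbol and groups that do not overlap. Up to 4 called members, by smallest p, of each of the 46 lists with at least 2 called members were added, with PUS1, NIP7, LEA1, TUP1, URA3 and RNR2, and for the difference of genotype effects the 8 of smallest p each way where fewer than 5 were called. Genes called in both treatments, further members of lists, and HAC1 were added after their values were seen. The comparison, the lists and the rules were chosen with earlier results of these data known. Alternatives were RLE scaling, no filter, DESeq2 1.42.0, a replicate block, each library left out, overlapping genes left out, only the 4 libraries of the comparison, and, added later, the purine correction and a crossed block.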

Additional observations from a re-analysis of the deposited data

Results flagged for a closer look

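PUS1 was the only gene whose genotype effect differed between the treatments by the test of the difference itself. The effect with aTC minus the effect with DMSO was 11.56 on the log2 scale (edgeR quasi-likelihood adjusted p = 3.19e-11). PUS1 had a log2 fold change of -0.39 for pus1del_aTC over WT_aTC and of -11.95 for pus1del_DMSO over WT_DMSO, where the deletion libraries held 2 and 4 reads. In WT_aTC the reads come from the native gene and the construct together, and these cannot be told apart in these counts.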

How the results depend on the processing

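The count of genes called in pus1del_aTC against WT_aTC (808) ranged from 3 to 1408 with 1 library left out, and with the purine correction and 1 library left out it was 5, 14, 193, 306 or 307, or 800 to 971. It was 369 with only the 4 libraries of the comparison, 830 with RLE scaling (305 higher and 525 lower), 875 with no filter, 973 with DESeq2, 795 without overlapping genes, 838 with the genes of known coding sequence and 691 with the purine correction. The count for pus1del_DMSO against WT_DMSO (13) ranged from 1 to 106, and with the correction and 1 library left out it was 9, 11, 39, 80, 145 or 217. It was 21 with RLE scaling, 29 with no filter, 115 with DESeq2, 29 without overlapping genes, 261 with only its 4 libraries, 20 with the genes of known coding sequence and 85 with the correction. The count for the difference of genotype effects (1) ranged from 1 to 175, and from 1 to 6 with the correction and a library left out, and was 1 under each other alternative run.

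The replicate block gave 757, 28 and 1. Same-numbered libraries did not deviate together (correlations of -0.156 to 0.143), so the numbers were not taken as pairs. A crossed pairing, chosen after seeing the data, gave 849, 21 and 1.

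Of the 146 called genes named by the rule, 3 were called without pus1del_aTC replicate 1 (edgeR adjusted p up to 0.247), 31 without WT_aTC replicate 1, 68 and 80 without replicates 2 and 1 of pus1del_DMSO, 101 to 136 without each other library, 139 with DESeq2 and 98 with the correction. The correction turned the sign of CGR1 (0.0253), MRP21 (0.001) and QCR6 (0.0747), none of which was then called. With 2 libraries a group, purine share and genotype cannot be fully told apart in the aTC comparison. The median of all genes stayed between -0.01 and 0.02 in the aTC comparison under each setting except the crossed pairing and the correction with a library left out, where it was not computed.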

Other observations

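Several smaller groups also held called genes, against 13.6% of all genes. Among 32 genes of mitosis and mitotic exit, 4 were lower and 0 higher by edgeR (12.5%, under the share of all genes). DESeq2 called 7 lower and 0 higher (21.9%, against 17.6% of all genes). At an unadjusted edgeR p under 0.05 there were 9 lower and 0 higher, where 1023 and 903 of all 5932 genes were. CLB2, the main mitotic cyclin gene, had 111 and 116 CPM in pus1del_aTC and 135 and 133 CPM in WT_aTC (log2 -0.24, corrected -0.12). BUD4, a bud site selection gene, fell by 0.32, and KIN3, a protein kinase gene, by 0.25. Of 36 proteasome genes, 5 were lower and 0 higher (13.9%, close to the share of all genes), and 3 lower after the correction. DESeq2 called 9 lower and 1 higher (27.8%, against 17.6% of all genes). At an unadjusted edgeR p under 0.05 there were 14 lower and 2 higher, to be read against the same 1023 and 903. RPN12 had 86.9 and 94.1 CPM in pus1del_aTC and 111 and 107 CPM in WT_aTC (log2 -0.27, corrected -0.34). SEM1, with a purine share of 65.6%, was at -0.61 and, after the correction, at -0.07.

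In other groups more genes were called higher than lower. Of 25 thiamine, biotin, NAD and pyridoxine genes 6 were higher, among them BNA5, of NAD synthesis, at 56.8 and 55.1 CPM in pus1del_aTC and 41.6 and 48.0 CPM in WT_aTC (log2 0.32), and 2 were higher after the correction. Sulfate assimilation and methionine had 3 of 29 higher and 0 lower (10.3%, under the 13.6% of all genes). DESeq2 called 3 higher and 1 lower (14.3%, under the 17.6% of all genes). At an unadjusted edgeR p under 0.05 there were 8 higher and 2 lower, where 903 and 1023 of all 5932 genes were. MET3, the ATP sulfurylase gene, had 23.3 and 24.5 CPM in pus1del_aTC and 18.3 and 19.5 CPM in WT_aTC (log2 0.34), and SUL1, a sulfate permease gene, rose by 0.42. Of 18 zinc and copper genes, COT1, a vacuolar zinc and cobalt transporter gene, rose by 0.38 and CTR3, a copper transporter gene, by 0.31, while ZRT1 fell by 0.25 (2 higher and 2 lower after the correction). The respiratory chain was mixed, with 4 of 41 genes higher and 2 lower (14.6%, close to the share of all genes). Among them NDI1, the internal NADH dehydrogenase gene, rose by 0.30. Within the phosphate regulon PHO5, an acid phosphatase gene, rose by 0.33 while PHO4, the gene of its activator, fell by 0.39. No other gene of that list was called (9.52% of 21, under the share of all genes). Cell wall genes were mixed too, with 10.5% of 38 called, also under that share. PST1 rose by 0.28, and CCW12 and TIR3, both mannoprotein genes, fell by 0.27 and 0.24. STE5, the scaffold gene of the pheromone pathway, had 22 and 21.9 CPM in pus1del_aTC and 15.9 and 16.6 CPM in WT_aTC, in diploids (log2 0.43, corrected 0.35).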
